A study of Caenorhabditis elegans with 2 samples.

Results

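Translation elongation factors carry the growing peptide chain forward on the ribosome. eEF1A, encoded in Caenorhabditis elegans by the paralogues eef-1A.1 and eef-1A.2, binds GTP and delivers aminoacyl-tRNA to the ribosome, and eEF2, encoded by eef-2, is the GTPase that moves the ribosome along the mRNA by a codon. The promoter of eef-1A.1, long known as eft-3, is widely used in worm transgenes for broad expression. The regions called near these genes are described here in a chromatin immunoprecipitation and sequencing (ChIP-seq) experiment on the homeodomain protein CEH-9. The 3 genes, of 19973 protein-coding genes on the nuclear chromosomes, were chosen by name with their regions, signal values and ranks in these lists already in view. Those values and ranks are therefore given as a description, without a test.

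Chromatin came from whole L3 larvae of strain OP202, of both sexes, which carries the unc-119(ed3) mutation on chromosome III and the transgene insertion wgIs202, expressing CEH-9 with a GFP-FLAG tag at its C-terminus. The 2 libraries, biological replicates 1 and 3, make up a single group. No group without the transgene was analysed here, so conditions could not be compared. The labels give ceh-9 as the antibody target in both libraries and call both of them input in a free-text field, a conflict that the sources used here do not settle. Whole larvae mix all tissues, so a region cannot be assigned to a cell type, and a signal in few cells cannot be told apart from a weak signal in many.

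Each deposited list gives regions with a signal value, which has no stated unit and ranks regions within a list, and with a q-value, the p-value adjusted by the authors' caller. The list of each replicate held 30000 regions, the pooled list of both replicates 10489, and the reproducible set, which the authors drew from these lists by the irreproducible discovery rate (IDR), 45. That set was deposited as optimal IDR-thresholded peaks, and a peak in it need not have a region in both replicate lists. Per the deposited descriptions the long replicate and pooled lists include background. A q-value under 0.05 was reached by 3048 regions in replicate 1, 24 in replicate 3 and 28 in the pooled list. The 45 reproducible peaks were the 45 strongest pooled regions, with a signal value of 30.68 at the last one inside and 30.64 at the first one outside. The read depth is unknown here. Each gene window reached from 2000 bp upstream of the gene start to 1000 bp past the gene end, and a region counted when it overlapped the window.

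The genes lie on different chromosomes. On ce11, eef-1A.1 (WBGene00001168) lies on the minus strand of chromosome III from 6970026 to 6971712. Its paralogue eef-1A.2 (WBGene00001169) lies on the plus strand of X from 7823654 to 7825769, and eef-2 (WBGene00001167) on the plus strand of I from 9163531 to 9166952. The paralogues encode the same protein of 463 residues, with 0 differing residues, while their coding sequences of 1389 bases differ at 84 positions, 82 of them at the third base of a codon (93.95% identity). The eef-1A.1 coding sequence is split into 4 segments and that of eef-1A.2 into 3. The 2000 bp upstream of the paralogues share 0 words of 20 bases.

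The 201 bases around the summit upstream of eef-1A.2 are shown, on chrX:7823090-7823290, plus strand, from the RefSeq genome of build WBcel235 (ce11). This sequence carries the strongest signal at any of the 3 genes in the pooled and replicate 1 lists, and replicate 3 listed no region there. Capitals mark CAATTA, which is the homeodomain word TAATTG read on the other strand, and GAGAGAGA.
eef-1A.2 upstream region: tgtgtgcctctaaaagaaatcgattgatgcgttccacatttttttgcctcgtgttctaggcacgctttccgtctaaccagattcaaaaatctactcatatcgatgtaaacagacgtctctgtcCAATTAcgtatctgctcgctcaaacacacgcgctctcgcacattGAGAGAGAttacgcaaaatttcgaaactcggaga

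A second pair is shown because the main replicate 1 region of eef-1A.1 lies in coding sequence that its paralogue nearly shares. It covers 151 coding bases around that region's summit, on chrIII:6971086-6971236, minus strand, and the matching bases of eef-1A.2 on chrX:7824170-7824320, plus strand. Capitals mark the 9 bases that differ between the genes, all of them at the third base of a codon.
eef-1A.1 coding region: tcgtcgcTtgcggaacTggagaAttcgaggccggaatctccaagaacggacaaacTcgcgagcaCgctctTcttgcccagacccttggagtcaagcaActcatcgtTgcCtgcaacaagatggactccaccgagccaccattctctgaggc
eef-1A.2 counterpart: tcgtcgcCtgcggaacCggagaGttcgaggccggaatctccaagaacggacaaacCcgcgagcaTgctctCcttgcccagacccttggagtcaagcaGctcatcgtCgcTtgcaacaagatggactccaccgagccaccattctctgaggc

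Of the 3 genes, eef-1A.2 had a peak of the reproducible set and the others had 0, and all 3 had regions in the pooled list. A reproducible peak lay in the windows of 0.230% of all protein-coding genes and a pooled region in those of 47.4%, so the presence of a pooled region by itself is common. The pooled list held 2 regions at each gene, 6 in all, and 15.6% of protein-coding genes had 2 or more. Replicate 1 held 2 regions at eef-1A.1, 1 at eef-1A.2 and 5 at eef-2, and replicate 3 held 4, 1 and 2 at the same genes. In the replicate lists, 83.0% of all protein-coding genes had a region in replicate 1 and 82.1% in replicate 3. The 3 windows together held 0.493 regions per kb in replicate 1 and 0.431 in replicate 3, against 0.299 per kb of the nuclear genome in each.

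**Figure D1:**
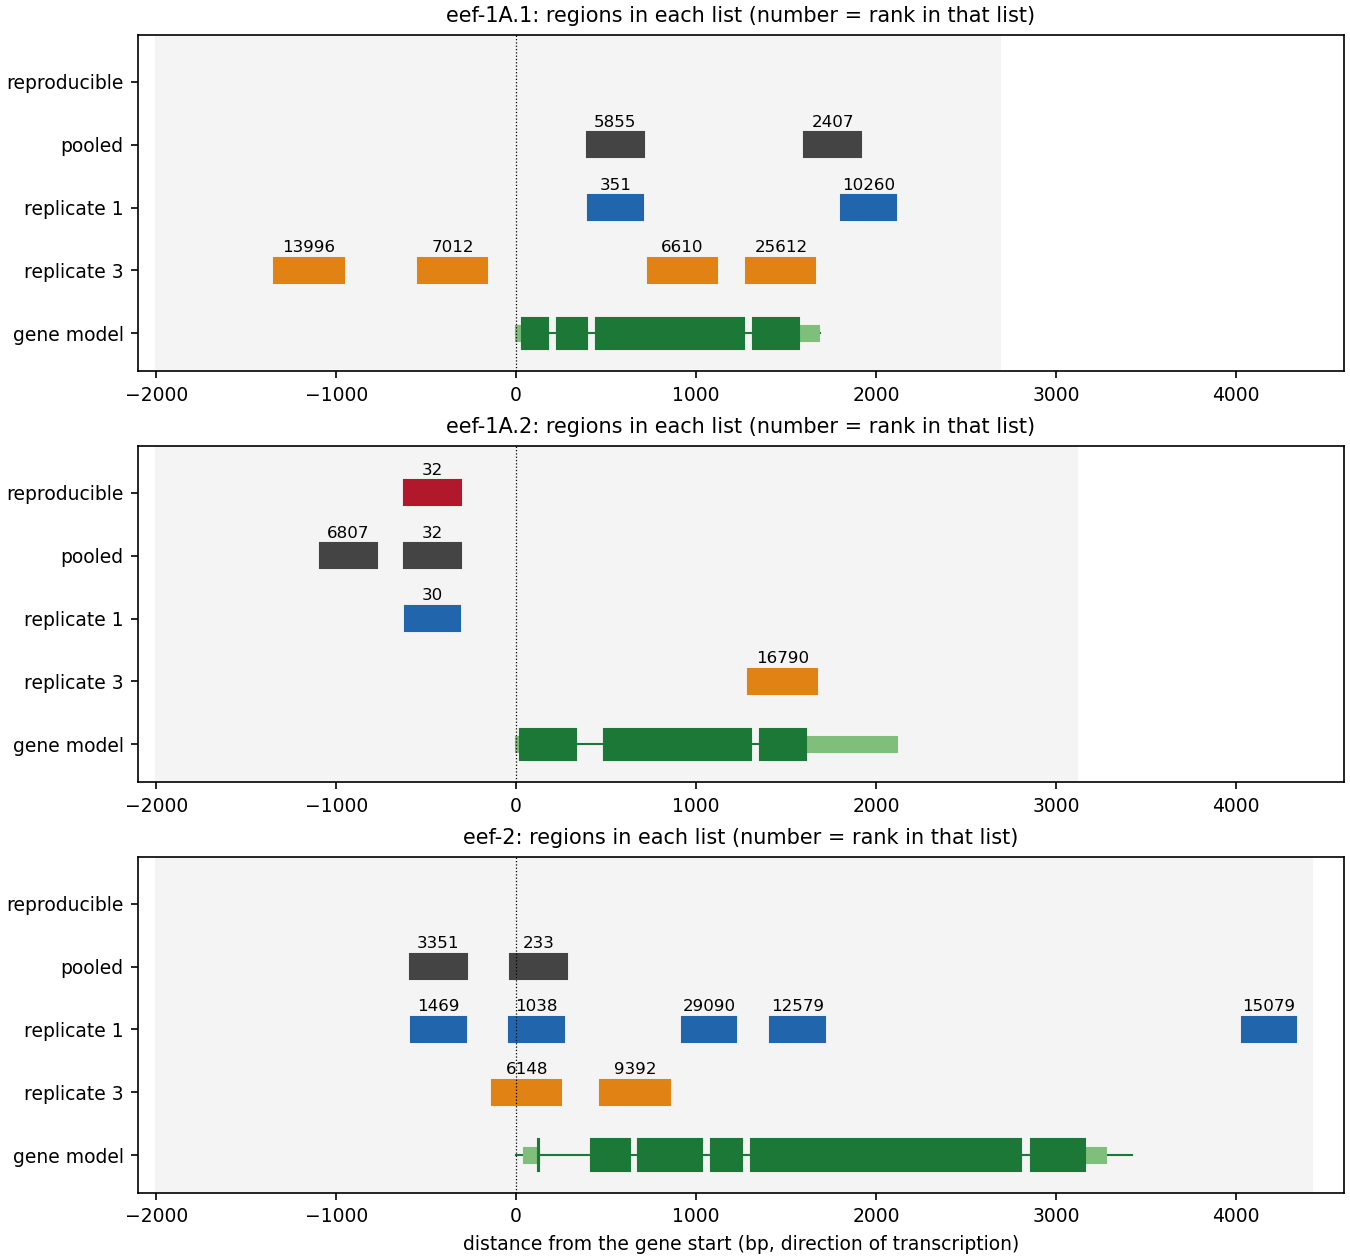
Regions at eef-1A.1, eef-1A.2 and eef-2 by distance of their bases from the gene start (bp), with a row for each list, the rank in that list above each region, and coding exons (dark green) and other exons (light green) of 1 transcript below. Grey shading spans the window. The reproducible peak of eef-1A.2 (rank 32) stands over a replicate 1 region (rank 30) and no replicate 3 region, while at eef-2 regions of the pooled list and of both replicates overlap at the start.

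At eef-1A.2 the peak lay upstream, in intergenic sequence, and was matched by a region in the list of replicate 1 and not in that of replicate 3. The reproducible peak, on X from 7823032 to 7823347, had its summit 464 bp upstream of the gene start, with a signal value of 32.4, rank 32 in the pooled list, rank 19 of the 2066 pooled regions on X and a q-value of 0.0794. The nearest annotated start was that of the non-coding RNA gene R03G5.8, which lies between the peak and eef-1A.2 on the opposite strand, and the summit was 335 bp past it in that gene's direction. In replicate 1 a region with its summit at the same base had a signal value of 27.4, rank 30 of all regions and 17 of the nuclear ones, and a q-value of 0.00134. The replicate 3 list had no region there, as its closest summit was 1944 bp away, inside exon 3 of eef-1A.2.

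That replicate 3 region, from 7824942 to 7825325, had a signal value of 5.97, rank 16790 and a q-value of 0.875, and it was the only region of replicate 3 in the window. Upstream of the eef-1A.2 start, the next replicate 3 summit was 11675 bp away. Of the 45 reproducible peaks, 40 had a replicate 3 summit within 200 bp, among them 19 of the 22 on X. Of all 45, the eef-1A.2 peak was the farthest from any replicate 3 summit, and 10.03% of all pooled regions were at least as far. A weaker pooled region of eef-1A.2, from 7822565 to 7822880, lay 931 bp upstream with a signal value of 13.3, rank 6807 and a q-value of 0.916. Its nearest replicate 1 summit was that of the peak itself, 467 bp away, and its nearest replicate 3 summit was 2411 bp away.

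Of all pooled regions, 40.5% had a summit of each replicate within 200 bp. Of the 6 at these genes, 1 did, and it was at eef-2. It lay on I from 9163496 to 9163811, with its summit 123 bp past the gene start on the first coding base in exon 1. Its signal value was 24.1, rank 233 in the pooled list and rank 35 of the 1529 pooled regions on chromosome I, with a q-value of 0.372. The replicate 1 region had its summit 10 bp away in the 5′ UTR, with a signal value of 12.6, rank 1038 and a q-value of 0.0159. The replicate 3 region had its summit 64 bp away, also in the 5′ UTR, with a signal value of 8.17, rank 6148 and a q-value of 0.717. The 3 summits thus fell 123, 113 and 59 bp past the gene start in the pooled, replicate 1 and replicate 3 lists. A pooled region with a summit of each replicate within 200 bp lay in the windows of 23.2% of all protein-coding genes. Of the 3 genes, eef-2 was also the 1 with a replicate 1 summit within 200 bp of a replicate 3 summit, at 54 bp, and 33.0% of all protein-coding genes had such a pair.

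A second pooled region of eef-2, from 9162940 to 9163255, lay 433 bp upstream, inside exon 2 of clsp-1, a gene transcribed away from eef-2 on the other strand. It had a signal value of 15.5, rank 3351 and a q-value of 0.897. In replicate 1 a region 3 bp away had a signal value of 11.7, rank 1469 and a q-value of 0.0255, and in replicate 3 the nearest summit was 492 bp away. The other regions of eef-2 were weak: 3 in replicate 1, with ranks from 12579 to 29090, lay 1072, 1566 and 4184 bp past the start, the last of them beyond the gene end and 717 bp upstream of pyk-1, which encodes pyruvate kinase. The other region of replicate 3 lay 661 bp past the start, with a signal value of 7.26 and rank 9392.

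At eef-1A.1 the regions lay in and beyond the gene, and none of the pooled or replicate 1 list lay upstream of it. The pooled region from 6971003 to 6971318 had its summit in exon 3, 551 bp past the start, with a signal value of 13.8, rank 5855 and a q-value of 0.899. In replicate 1 a region with its summit at the same base had a signal value of 15.4 and rank 351. Its q-value of 0.00134 equalled that of the stronger replicate 1 region upstream of eef-1A.2. In replicate 3 the summit nearest to that base of eef-1A.1, also in its exon 3, was 374 bp away. It had a signal value of 8.03, rank 6610 and a q-value of 0.731. This coding stretch thus stood near the middle of the pooled list and near the top of the replicate 1 list. The matching stretch of eef-1A.2, from 332 to 749 bp past its start, held no region in any of the lists, and 18 of the 268 coding bases differ between the genes there.

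The other pooled region of eef-1A.1, from 6969794 to 6970109, was the stronger of its pair, with a signal value of 16.5, rank 2407 and a q-value of 0.821. Its summit lay 1760 bp past the start, beyond the gene end, in exon 3 of the convergent coding gene F31E3.12. The nearest summit was 198 bp away in replicate 1, with a signal value of 6.91 and rank 10260, and 288 bp away in replicate 3, with a signal value of 4.94 and rank 25612. That replicate 3 summit lay 1472 bp past the eef-1A.1 start, in exon 4, which holds the last coding segment. The only replicate 3 region of eef-1A.2 also had its summit in the last coding segment of its gene, there in exon 3. Upstream of eef-1A.1, only replicate 3 had regions. The nearer one had its summit 352 bp from the gene start inside the microRNA gene cel-mir-5549, with a signal value of 7.93 and rank 7012. The farther one had its summit at 1151 bp upstream in exon 5 of rfc-4, which encodes a subunit of the clamp-loading replication factor C, with a signal value of 6.36 and rank 13996. In the pooled list the nearest summit upstream of the eef-1A.1 start was 7676 bp away, and in replicate 1 it was 5729 bp away.

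**Figure D2:**
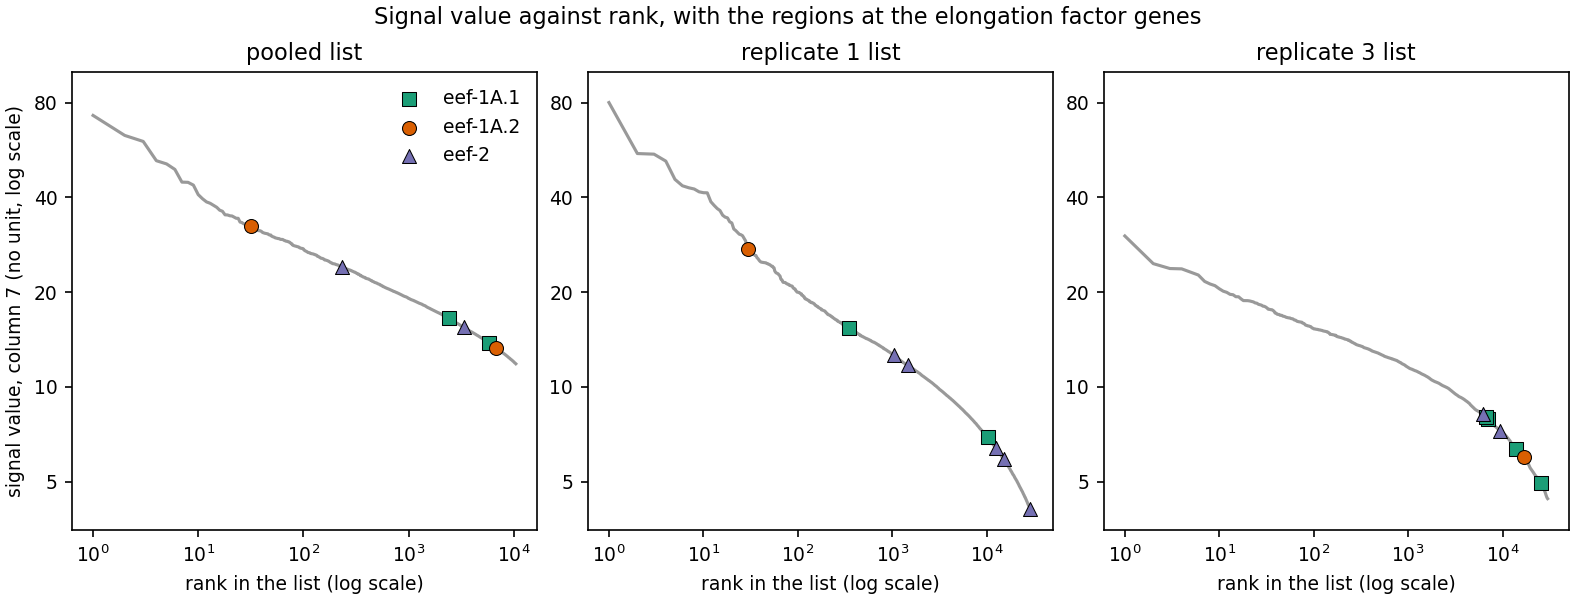
Signal value (column 7, no unit) against rank in the pooled, replicate 1 and replicate 3 lists, both on log scales, with the whole list as a grey line and the regions at each gene as symbols. eef-1A.2 ranks 32 in the pooled list and 30 in replicate 1, whereas the regions of all 3 genes in replicate 3 have ranks of 6148 or lower down the list.

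The paralogues differed in where their regions lay and in their ranks in replicate 1 and the pooled list. The strongest pooled signal value was 32.4 in the window of eef-1A.2 and 16.5 in that of eef-1A.1, and 0.155% and 14.1% of protein-coding genes had a value at least as high. For eef-2 the value was 24.1, and 1.35% of genes reached it. The value of 16.5 was from the region with its summit in F31E3.12. The pooled region in exon 3 of eef-1A.1 itself had a signal value of 13.8 and rank 5855. In replicate 1 the strongest values were 27.4 at eef-1A.2, 15.4 at eef-1A.1 and 12.6 at eef-2, reached by 0.0701%, 2.07% and 6.31% of genes. In replicate 3 the order was another one, with 5.97 at eef-1A.2, 8.03 at eef-1A.1 and 8.17 at eef-2, reached by 63.2%, 33.9% and 32.1% of genes. No region of replicate 3 at these genes was among its 1000 strongest, where 6.42% of genes had one. In replicate 1, eef-1A.1 and eef-1A.2 had a region among the 1000 strongest nuclear ones, where 6.22% of genes had one, and the eef-2 region at the start followed at nuclear rank 1014. The strongest value of eef-1A.2 was thus above that of eef-1A.1 in replicate 1 and below it in replicate 3. These values came from different places: for eef-1A.2, from the upstream peak in replicate 1 and from exon 3 in replicate 3. In replicate 3 the q-values were 0.875 at eef-1A.2 and 0.731 at eef-1A.1. The replicates therefore do not compare the same regions of the paralogues.

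Replicate support of the 6 pooled regions was uneven. Of the 6, 5 had a replicate 1 summit within 200 bp and 1 had a replicate 3 summit within 200 bp, and in all 6 the nearer summit was that of replicate 1. Among all pooled regions, 70.03% had a replicate 1 summit within 200 bp, 66.2% a replicate 3 summit, 40.5% both, and 55.2% were nearer to replicate 1. At pooled ranks 46 to 500, the range that holds the eef-2 region at the start, 93.8% had a replicate 1 summit within 200 bp, 86.2% a replicate 3 summit and 80% both. By q-value, 4 of the 8 replicate 1 regions were under 0.05, at least 1 at each gene, where 17.3% of protein-coding genes had such a region. Of the 7 replicate 3 regions and the 6 pooled regions 0 were under 0.05, where 0.110% and 0.125% of genes had one.

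**Figure D3:**
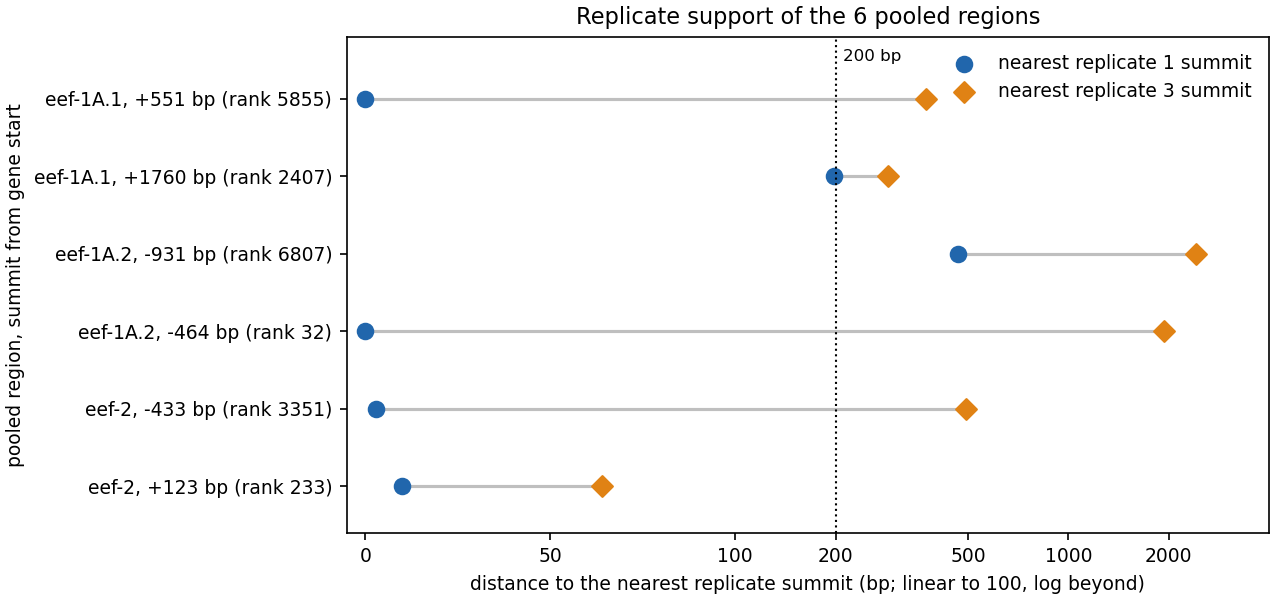
Distance (bp) from each of the 6 pooled summits to the nearest summit of replicate 1 (circles) and of replicate 3 (diamonds), with a dotted line at 200 bp and a scale that is linear to 100 and logarithmic beyond. Only the eef-2 region 123 bp past the start has both symbols left of the line, at 10 and 64 bp, and the eef-1A.2 peak has 0 and 1944 bp.

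Reads from the coding sequence of one eEF1A paralogue can match the other, so the regions in coding sequence were checked for words of 36 bases that occur more than once in the genome. The sources used here give neither the read length nor the treatment of reads with several matches. In the coding sequence, 7.37% of the words of eef-1A.1 and 7.17% of those of eef-1A.2 were repeated, and for eef-2 the share was 0%. Upstream of each of the 3 genes, 0% of the words were repeated, and the reproducible peak of eef-1A.2 held 0% as well. Repeated words made up 5.34% of the pooled region in exon 3 of eef-1A.1, a share that 4.14% of all pooled regions reached. They made up 6.30% both of the replicate 3 region in exon 3 of eef-1A.2 and of that in exon 4 of eef-1A.1. Of all replicate 3 regions, 6.97% reached that share. In the replicate 3 region in exon 3 of eef-1A.1 they made up 6.02%, which 7.18% reached. The part of repeated words in these coding regions was not tested.

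**Figure D4:**
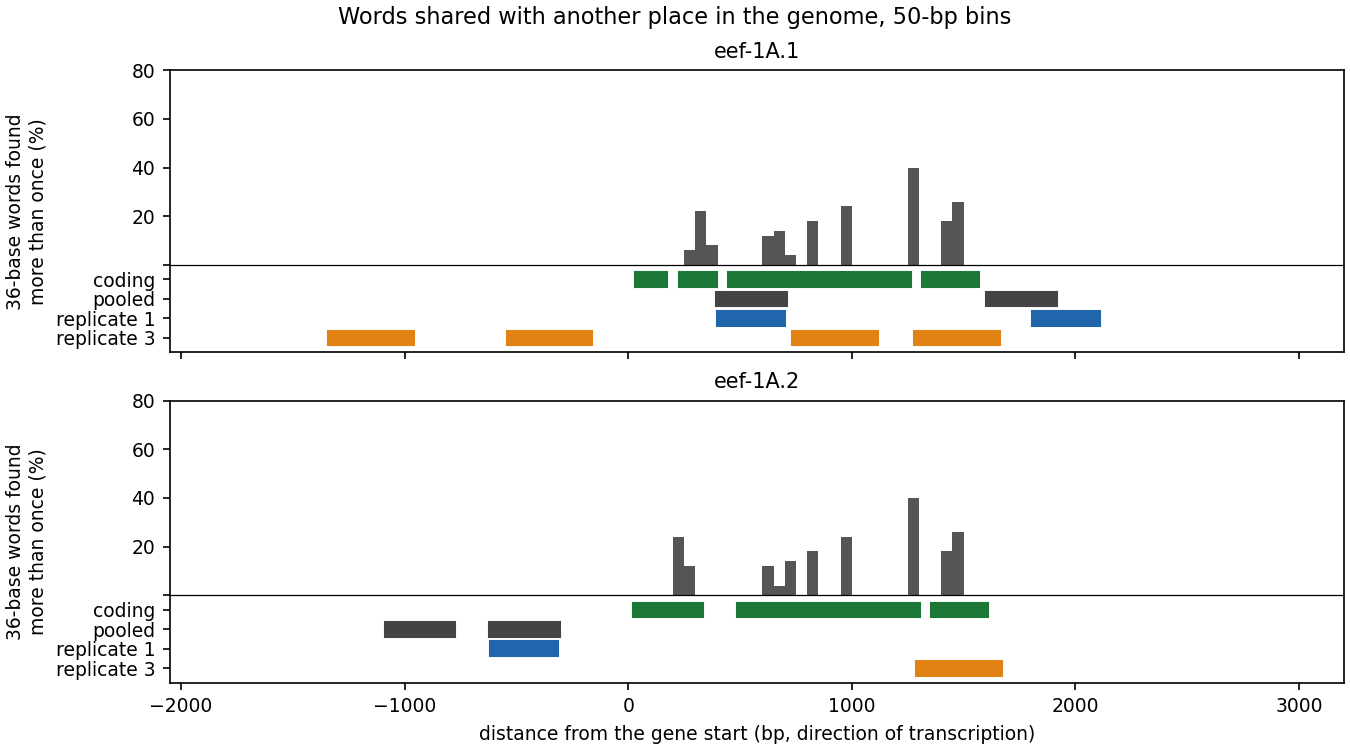
Share of 36-base words found more than once in the genome (percent, 50-bp bins) along eef-1A.1 and eef-1A.2 by distance from the gene start (bp), above the coding segments and the regions of the pooled list and of both replicates. Repeated words fall within the coding part of both genes and are at 0% upstream, where the eef-1A.2 peak lies.

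Within 100 bp of each pooled summit, 5 words were searched on both strands: the homeodomain words TAATTA and TAATTG, the purine words GAGAAAGA and GAGAGAGA, and the GATA word TGATAA. The eef-1A.2 peak held TAATTG once, centred 25.5 bp downstream of the summit, and GAGAGAGA once, centred 70.5 bp downstream. Among all pooled regions 12.8% held TAATTG and 3.32% held GAGAGAGA, and among the 45 reproducible peaks 17.8% and 22.2% did. The longest run of purines on either strand of the eef-1A.2 peak was 8 bases, where the median region of the pooled list had 9 and the median reproducible peak 12. The weaker eef-1A.2 region 931 bp upstream also held TAATTG. The eef-2 region at the start held TAATTA, centred 22.5 bp downstream of the summit, as did 6.57% of pooled regions. TGATAA was found at the eef-1A.1 region in F31E3.12, as in 15.1% of pooled regions, and GAGAAAGA, present in 2.97%, was found at none of the 6.

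Base composition differed widely among the 6 regions. Within 100 bp of the summit the GC content was 57.7% at the exon 3 region of eef-1A.1, a value that 0.648% of pooled regions reached, and 36.8% at the region in F31E3.12. It was 43.3% at the eef-1A.2 peak, close to the 44.3% of the median reproducible peak, and 25.4% at its weaker neighbour. At eef-2 it was 34.3% at the start and 44.8% in clsp-1. The median pooled region had 39.8%. The 2000 bp upstream of the genes were alike in GC content, at 34.6% for eef-1A.1, 33.9% for eef-1A.2 and 36.4% for eef-2, and these stretches held TAATTG 1, 6 and 0 times, TAATTA 4, 2 and 1 times and TGATAA 4, 2 and 4 times in that order. GAGAGAGA was found 0, 1 and 0 times and GAGAAAGA 0, 0 and 1 times.

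Other translation factor genes were taken from a list of 56 symbols, of which 51 matched the annotation, 48 of them other than the 3 genes. The 3 genes were chosen with their regions in view, so their own counts below are a description and no contrast with the others. A pooled region lay in the windows of all 3 elongation factor genes and of 23 of the 48 others (47.9%, exact 95% binomial interval 33.3 to 62.8), near the 47.4% of all protein-coding genes. For replicate 1 the counts were 3 of 3 and 42 of 48 (87.5%, interval 74.8 to 95.3), where 83.0% of all protein-coding genes had a region. For replicate 3 they were 3 of 3 and 45 of 48 (93.8%, interval 82.8 to 98.7), where 82.1% of all protein-coding genes had one. These intervals treat genes as independent and cover counting error only. Window length was not matched between the listed genes and all protein-coding genes, so no difference is read from them. The reproducible set reached 1 of the 3 genes and 0 of the 48 others, which allows a share of up to 7.40% by the exact interval, where 0.230% of all protein-coding genes had a reproducible peak. Nothing is read from 0 of 48 at that background. Among the 500 strongest pooled regions, 2 of the 3 genes had one, eef-1A.2 and eef-2, and 1 of the 48 others did, where 2.96% of all protein-coding genes did. That other gene was pab-2, which encodes a poly(A)-binding protein and is also on X. Its strongest region lay 178 bp upstream of the start with a signal value of 23.2 and rank 299, close to the eef-2 values of 24.1 and 233.

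The remaining cytosolic elongation factor genes encode the subunits of eEF1B, which reloads eEF1A with GTP. Each of eef-1B.1, eef-1B.2 and eef-1G, named here after their values were seen, had 1 pooled region, with signal values of 15.04, 12.5 and 13.6 and ranks 3843, 8744 and 6155. In the pooled list these values lie below the strongest value of each of the 3 genes. For eef-1A.1 that strongest value is from the region with its summit in F31E3.12. The pooled region in exon 3 of eef-1A.1, at 13.8, lies below eef-1B.1 and above eef-1B.2 and eef-1G. The replicate lists had another order: in replicate 3 the strongest values of eef-1B.2 (10.1) and eef-1B.1 (8.22) were above those of all 3 genes, and in replicate 1 that of eef-1B.2 (13.05) was above that of eef-2 (12.6). Of the 4 mitochondrial elongation factor genes 2 had a pooled region, of the 3 accessory genes 2, of the 32 initiation factor genes 13, of the 4 release and recycling genes 1, and of the 2 poly(A)-binding genes 2. The share over all protein-coding genes was 47.4%, and no difference between roles was tested. The strongest value among the initiation factor genes was 18.9, at rank 1063.

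**Figure D5:**
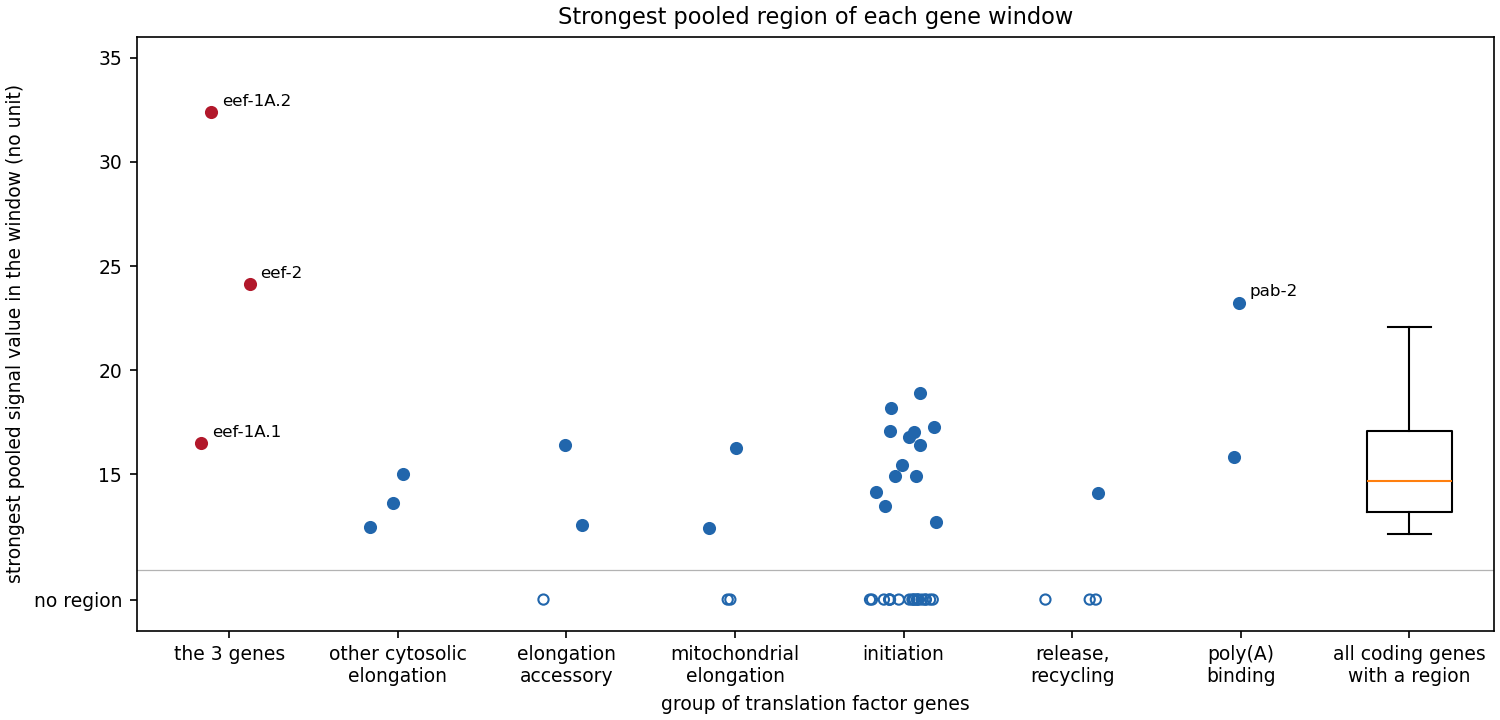
Strongest pooled signal value (no unit) in the window of each translation factor gene by group, filled where a region was present and open where there was none, with a box for all protein-coding genes with a region (median, quartiles, whiskers at the 5th and 95th percentiles). eef-1A.2 at 32.4 and eef-2 at 24.1 stand at the top, and pab-2 follows at 23.2. eef-1A.1 at 16.5, from the region with its summit in F31E3.12, lies among the other genes.

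Outside the windows, the nearest pooled regions were 1039 bp beyond the downstream edge of eef-1A.1 (signal value 13.7, rank 6099), 2775 bp beyond that of eef-1A.2 (13.4, rank 6619) and 2201 bp beyond the upstream edge of eef-2 (14.8, rank 4112). The nearest replicate 1 region outside the eef-1A.2 window lay 443 bp beyond its upstream edge, with a signal value of 5.51 and rank 17446, and on the downstream side one lay 2741 bp beyond the edge with a signal value of 10.9, rank 2031 and a q-value of 0.0337.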

How the data were processed

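CEH-9 ChIP-seq region lists of 2 biological replicates, numbered 1 and 3 in the labels, were used on build ce11. Per the deposited file descriptions, the authors made a list of peaks with background from each replicate, and from both pooled, relative to a control alignment, and derived the reproducible set by IDR. Per these descriptions, column 7 of the deposited narrowPeak lists is a signal value and column 9 the −log10 of a q-value. The aligner, caller, scaling and thresholds are not given in these sources, and the ce10 lists were not used. Genes came from Ensembl release 115 and sequence from the RefSeq genome, both WBcel235, and every region ended within its chromosome. Ranks count regions with a higher signal value in the same list, mitochondrial regions included unless stated. Summits within 200 bp counted as matched. The genes, lists and words were chosen with earlier results of these data known, so no test was made. Named genes were the 3 genes, genes overlapping or nearest to described regions, and listed translation factor genes in the reproducible set or the 500 strongest pooled regions. Other translation factor genes named fall outside this rule and were chosen after their values were seen. Symbols not matched were left out. Windows, matching distances, stricter lists and each replicate left out were tried as alternatives. Gene windows and word searches were tested on simulated data. Python 3.11.15, pandas 2.3.3, NumPy 2.4.6 and SciPy 1.17.1 were used. Intervals cover counting error only. Without stated separate cultures, the spread between replicates may be technical.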

Additional observations from a re-analysis of the deposited data

How the results depend on the processing

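The reproducible peak at eef-1A.2 was the one such peak at the 3 genes with narrower and wider windows and when the summit had to lie in the window. The 6 pooled regions became 0 with a q-value under 0.05. The 8 replicate 1 regions became 4 with a q-value under 0.05 and 2 among its 1000 strongest nuclear regions, and the 7 of replicate 3 became 0 under both. Of the 6 pooled regions, 1 was matched in every replicate list within 200 bp, 4 within 500 bp, and between 1 (without replicate 1) and 5 (without replicate 3) with a replicate left out. Of all pooled regions, 40.5% were matched in both replicates within 200 bp, and the share within 500 bp was not computed. The strongest region stood at the percentile 99.7 of the pooled list for eef-1A.2, 77.1 for eef-1A.1 and 97.8 for eef-2. With a replicate left out, the strongest region of the remaining, longer list was taken, which need not be the same region. Its percentile ranged from 44.04 to 99.9 for eef-1A.2, from 78.0 to 98.8 for eef-1A.1 and from 79.5 to 96.5 for eef-2. The lower value came from replicate 3 in each. For eef-1A.2 that value belonged to the region in exon 3, as replicate 3 listed none at the peak. For eef-1A.1 the pooled region was that in F31E3.12 and the replicate regions were those in exon 3. For eef-2 it was the region at the start in each list. With windows 5000 bp upstream to 2000 bp downstream, the shares of the other translation factor genes with a region rose to 66.7% (pooled), 97.9% (replicate 1) and 100% (replicate 3), and those of all protein-coding genes to 63.8%, 93.9% and 93.4%. No paired analysis was possible because there was 1 group. Depth is unknown, so a region missing from replicate 3 was not detected in its list, and its signal there was not measured. The causes were not tested.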

Other observations

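Among the 48 translation factor genes other than the 3 elongation factor genes, replicate 3 had a region among its 1000 strongest nuclear ones at 2, where 6.42% of all protein-coding genes had one: ifg-1, which encodes the scaffold protein eIF4G (signal value 16.8, rank 48), and gfm-1, which encodes a mitochondrial elongation factor G (11.8, rank 910). Replicate 1 had one at 6 of the 48, where 6.22% of all protein-coding genes had one: tufm-1, which encodes mitochondrial elongation factor Tu (17.5, rank 183), eif-3.B (14.0, rank 590), pab-1 (13.2, rank 831), eef-1B.2 (13.05, rank 884), pab-2 (12.9, rank 921) and eif-1.A (12.9, rank 945). Of the 48, 0 had such a region in both replicates. The share of all protein-coding genes with one in both was not computed, so nothing is read from this 0. In replicate 1 the strongest region was at rank 13184 for ifg-1 and 19396 for gfm-1. In replicate 3 it was at rank 1388 for tufm-1, 1948 for eif-1.A, 2320 for eef-1B.2, 2600 for pab-2 and 3731 for pab-1. Replicate 3 had no region at eif-3.B. These genes were named after their values were seen, and no test was made.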
